A study of Salmo salar with 45 samples.

Results

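The gene described here is *parvaa* (ENSSSAG00000066724), 1 of the 69389 genes in the count tables of the distal intestine of Atlantic salmon and 1 of the 31729 that passed the filter on low counts. It was chosen by its measured counts in the LP500 diet and the control diet (CD), with earlier results of these data known: among genes with a symbol it had one of the smallest p-values for that comparison, with all 9 LP500 fish above the CD mean. The levels and fold changes of *parvaa* against CD are therefore given as a description, with no test.

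The parvins are adaptor proteins of focal adhesions, the sites where a cell is anchored through integrins to the extracellular matrix around it. A parvin binds integrin-linked kinase (encoded by *ilk*) and, through it, a PINCH protein (encoded by the *lims* genes) and the Ras suppressor RSU1, and this complex ties the integrin to filaments of actin. In mammals, alpha-parvin is best known from smooth muscle, mural cells of vessels and other contractile or matrix-bound cells, and teleosts carry more than 1 alpha-parvin gene.

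RNA-seq libraries were made from the distal intestine of 45 freshwater pre-smolts of 1 commercial strain, 9 fish on each of 5 diets. CD was a fish meal and plant-based feed without additives, and LP20, LP100 and LP500 were the same mix with Feed LP20 at 20, 100 and 500 mg per kg, a product of heat-killed *Lactobacillus plantarum* (HK L-137). MG was the same mix with β-glucan (MacroGard), the positive control of the study. The study's chemical analysis found less crude lipid in the LP100 and LP500 feeds than in the other feeds. The study states that mesentery and fat were cleared from the intestine before sampling. What was sequenced is therefore taken to be the whole wall, with epithelium, connective tissue, vessels and muscle. Whether fat was left on a sample was not tested. A lower level in such bulk tissue cannot be told apart from fewer cells of the type that carries the transcript.

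Library totals ran from 9660750 to 22377591 fragments counted to genes (median 14634308). Each diet was fed in triplicate tanks, but the labels do not tie a fish to its tank. The fish labels fall into 3 runs of 3 consecutive numbers per diet, and neither source says that a run is a tank. P-values below rest on the spread between fish, and fish of 1 tank may be more alike than fish of different tanks. The tissue label was checked against marker lists. The enterocyte list of 6 genes summed to between 6650 and 14300 CPM (counts scaled to library size) in every fish. By mean level it was led by *cubn* (cubilin, an endocytic receptor) and *lrp2b* (a megalin). The thrombocyte list of 3 genes summed to at most 3.32 CPM. In LP20 the enterocyte genes were uneven through a single fish, replicate 5. Its *apoa1* was at 10000 CPM (LP20 median 1650) and its *slc15a1* at 119 CPM (LP20 median 0.502). Its *lrp2b* was at 421 CPM (LP20 median 3220), and its *parvaa* was at 0.221 CPM, the lowest of LP20. No fish was left out of the main fit for this.

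The count tables place *parvaa* on the minus strand of chromosome 10 of the assembly Ssal_v3.1, from 108413605 to 108436343. It has 12 exon blocks with 2453 bases of exon in all, none of which lies within an exon on the opposite strand. The symbol comes from the RefSeq gene at 108416092 to 108436050, with which it shares 0.878 of the joint span. The uncharacterised gene LOC106561462 ends 13 bases away on the same strand, and LOC106561460 lies 6318 bases away on the other side, also on the same strand. By RefSeq the spans of *parvaa* and LOC106561460 overlap by 276 bases, and the counted *parvaa* reaches past the RefSeq one on that side.

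*parvaa* was a rare transcript in this tissue, since only 4.35% of the genes tested had a lower mean. It passed the filter on low counts through 19 fish at or above 0.683 CPM, all of them on additive diets. In CD it was represented by 1 to 5 counts per fish and 24 counts over the 9 fish. Counts normalized to CPM by the trimmed mean of M-values (TMM) had a lowest value of 0.0865, a median of 0.169 and a highest of 0.338 in CD, with a mean of 0.194 ± 0.0831 (SD, n = 9). The 24 summed counts gave a 95% Poisson interval from 0.124 to 0.289 CPM, which covers counting error only. The variance of the CD counts was 0.562 times their mean, so the CD fish were no more spread than counting alone gives.

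LP20 fish had a lowest value of 0.221 CPM, a median of 0.668 and a highest of 1.53, and their mean was 0.714 ± 0.409 (SD, n = 9). In LP100 the lowest value was 0.31, the median 0.828 and the highest 1.04, with a mean of 0.765 ± 0.255 (SD, n = 9). LP500 had a lowest value of 0.269, a median of 0.807, a highest of 1.29 and the highest mean, 0.847 ± 0.336 (SD, n = 9). In each HK L-137 diet 8 of the 9 fish lay above the highest CD fish and 1 lay within the CD range, those being LP20 replicate 5, LP100 replicate 8 and LP500 replicate 7. MG lay between CD and the HK L-137 diets, with a lowest value of 0.249 CPM, a median of 0.465, a highest of 1.37 and a mean of 0.515 ± 0.338 (SD, n = 9). Of the MG fish, 7 were above the highest CD fish and 2 were within the CD range.

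Of the 36 fish on additive diets, 31 lay above every CD fish, and the 7 lowest of all 45 fish were CD fish. The counts of the additive diets were more spread than counting alone gives, with a variance of 4.69 times the mean in LP20, 3.53 times in MG, 2.72 times in LP500 and 1.33 times in LP100. The order of the means was CD, MG, LP20, LP100 and LP500. The summed counts gave 95% Poisson intervals of 0.4 to 0.656 CPM in MG, 0.595 to 0.903 in LP20, 0.627 to 0.927 in LP100 and 0.711 to 1.03 in LP500. These intervals cover counting error only, which was smaller than the spread between fish in the additive diets, so the diets are not compared by them.

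**Figure D1:**
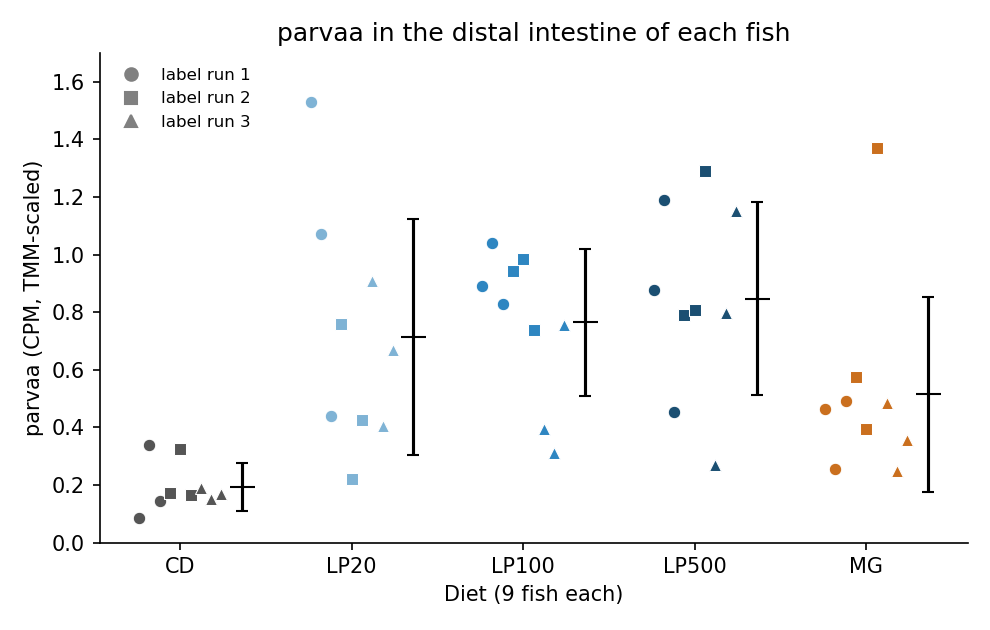
*parvaa* in each fish, in TMM-normalized CPM on a linear axis, by diet; points are fish, marker shapes are the runs of consecutive fish labels, and the bars to the right of the points give the mean ± SD of 9 fish. CD fish lie between 0.0865 and 0.338 CPM, and 8 fish of each HK L-137 diet and 7 MG fish lie above them.

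In an edgeR quasi-likelihood fit over all 45 fish, the log2 fold change of *parvaa* against CD was 1.85 in LP20 (SE 0.36, 95% interval 1.12 to 2.57). In LP100 it was 1.93 (SE 0.36, 1.21 to 2.65), in LP500 it was 2.08 (SE 0.36, 1.37 to 2.8) and in MG it was 1.37 (SE 0.37, 0.63 to 2.11). On a linear scale these were 3.6-fold, 3.82-fold, 4.23-fold and 2.59-fold. All 4 use the same 9 CD fish, whose low counts enter each of them.

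The runs of consecutive fish labels were compared because they may hold fish kept together. The mean of a run was 0.171 to 0.221 CPM in CD, 0.468 to 1.01 in LP20, 0.487 to 0.921 in LP100, 0.739 to 0.963 in LP500 and 0.364 to 0.779 in MG. Every run of every additive diet was thus above every CD run. The LP500 and CD runs hold the counts that chose the gene, and the other diets are set against the same CD fish. Each CD run rests on 7 to 9 *parvaa* counts, so this is a description.

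The additive diets were compared with each other to see whether the level followed the dose. The 3 pairs among LP20, LP100 and MG use no fish of the comparison that chose the gene. The other 3 share the LP500 fish with it, so their differences lean towards a higher LP500 and are given as a description. LP100 was above LP20 by 0.09 on the log2 scale (95% interval -0.54 to 0.71, edgeR adjusted p = 0.984). LP500 was above LP100 by 0.15 (-0.47 to 0.77, edgeR adjusted p = 0.909). LP500 was above LP20 by 0.24 (-0.39 to 0.86, edgeR adjusted p = 0.753). None of the 3 doses could therefore be separated from another beyond the spread between fish, and the intervals still allow a difference of up to 1.81-fold between LP500 and LP20.

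Differences from MG were larger. LP20 was above MG by 0.47 (95% interval -0.17 to 1.12, edgeR adjusted p = 1.0), LP100 by 0.56 (-0.08 to 1.2, edgeR adjusted p = 0.776) and LP500 by 0.71 (0.07 to 1.35, edgeR adjusted p = 0.364). The adjustment runs over all 31729 genes. In an exact two-sided permutation test on *parvaa* alone, with the 6 pairs adjusted together, LP500 against MG had p = 0.0408 (adjusted 0.172) and 7 of the 9 LP500 fish were above the MG median. LP100 against MG had an exact p of 0.0572 (adjusted 0.172), and the other 4 pairs had exact p between 0.246 and 0.697. No pair passed the threshold after adjustment. The LP500 fish helped to choose the gene, so p-values of the pairs with LP500 lean low and cannot decide whether LP500 was higher. The adjustment over the 6 pairs includes them. The filter on low counts was passed through 4 LP20, 7 LP100, 7 LP500 and 1 MG fish, which also leans towards a lower MG. Across all genes edgeR called 0 genes (0%) in each of the 6 pairs, with 1315 to 4296 genes at an unadjusted p under 0.05, and DESeq2 called between 0 and 207.

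*col1a1a* (ENSSSAG00000006686, plus strand of chromosome 6, 44754656 to 44777524) encodes a chain of type I collagen, the main fibre of connective tissue, and was used as the covariate. It had a lowest value of 24.2 CPM, a median of 41.7 and a highest of 182 in CD, and 37.6, 273 and 625 in LP500. Its mean rose from 58.3 ± 48.5 CPM (SD, n = 9) in CD to 286 ± 171 (SD, n = 9) in LP500, which was 2.29 on the log2 scale (SE 0.47, edgeR adjusted p = 0.00518). In LP100 it also rose, by 1.97 (SE 0.47, edgeR adjusted p = 0.0222), and the values in LP20 and MG were 1.62 (edgeR adjusted p = 0.136) and 1.24. In *col1a1a*, 5 LP20 fish, 7 LP100 fish, 7 LP500 fish and 3 MG fish lay above the highest CD fish, fewer in each diet than in *parvaa*. *parvaa* was chosen for its difference between LP500 and CD, so this is not a separate result. The *col1a1a* numbers also rest on a single CD fish at 182 CPM, where the next CD fish had 68.2.

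Within diets *parvaa* and *col1a1a* varied together. Over 45 fish with the diet means removed, Pearson's r between their log2 CPM was 0.45 (permutation p = 0.0037, adjusted 0.0211 over 14 relations) and Spearman's rho was 0.42 (permutation p = 0.00631, adjusted 0.0766). Without the 2 fish farthest from the median in *col1a1a*, r was 0.45. The rank correlation was thus not past the threshold after adjustment.

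Single diets differed in r but the groups are small. In MG r was 0.77 (exact permutation p = 0.00386, adjusted 0.0193 over 5 diets) and rho was 0.85, and r without the 2 farthest fish was 0.67. In LP500 r was 0.52, in LP100 0.44, in LP20 0.31 and in CD -0.01, with exact permutation p from 0.162 to 0.976. Leaving out the 2 farthest fish moved r to 0.43 in LP500, -0.14 in LP100, 0.69 in LP20 and 0.42 in CD, so the values of LP100, LP20 and CD rest on those fish. An edgeR test of unequal slopes over the 5 diets gave an adjusted p of 0.999, with slopes of -0.03 in CD, 0.3 in LP20, 0.24 in LP100, 0.32 in LP500 and 0.52 in MG.

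Single fish are given as examples, and their *parvaa* values rest on few counts. CD replicate 7 had the highest *col1a1a* of its diet, 182 CPM, and 0.191 CPM of *parvaa*, close to the CD mean. LP20 replicate 4 had the lowest *col1a1a* of its diet, 33.1 CPM, and 0.759 CPM of *parvaa* from 9 counts. LP100 replicate 7 and LP500 replicate 3 had 27.9 and 37.6 CPM of *col1a1a* and 0.394 and 0.454 CPM of *parvaa*, from 5 and 6 counts. These 3 additive diet fish, each the lowest of its diet in *col1a1a*, were within the CD range for *col1a1a* and above every CD fish for *parvaa*. The highest CD fish, CD replicate 2, had 0.338 CPM of *parvaa*, also from 5 counts. MG replicate 8, the lowest MG fish in *col1a1a* with 38.7 CPM, had 0.249 CPM of *parvaa*, within the CD range. In the other direction, LP100 replicate 8 had 268 CPM of *col1a1a* and 0.31 CPM of *parvaa*, and LP500 replicate 7 had 204 and 0.269 CPM.

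**Figure D2:**
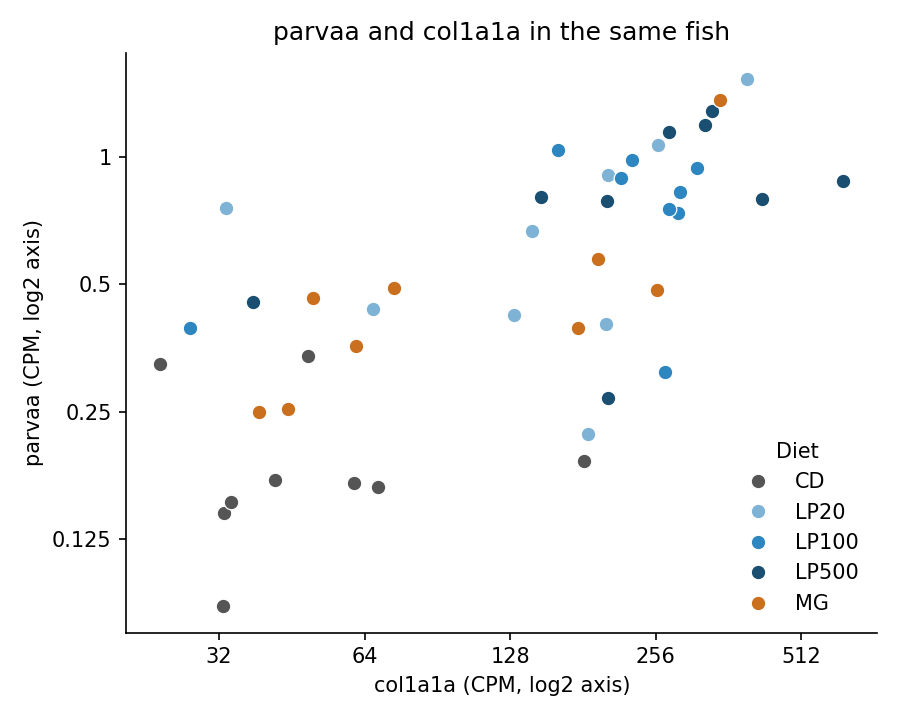
*parvaa* against *col1a1a* in the same fish, both in TMM-normalized CPM on log2 axes; each point is a fish and the colour is its diet. Within diets r was 0.45 over 45 fish, and most CD fish lie below the additive diet fish that have a like level of *col1a1a*.

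With *col1a1a* in the model as a covariate, part of the difference from CD remained. The log2 fold change of *parvaa* was then 1.29 in LP20 (SE 0.36, 95% interval 0.56 to 2.01), which is 69.7% of the value without the covariate. In LP100 it was 1.26 (SE 0.37, 0.51 to 2.01), or 65.2%. In LP500 it was 1.32 (SE 0.38, 0.55 to 2.1), or 63.6%. In MG it was 0.94 (SE 0.35, 0.23 to 1.65), or 68.5%. The share that remained was close to the same in the 4 diets, but the 4 values share 1 slope and the same CD fish. Their likeness is therefore not a separate result. With a slope for each diet the share ran from 87.5% in LP500 to 105% in MG. These values are a description: LP500 against CD chose the gene, and the other 3 comparisons share its CD fish. Over all genes this fit called 0 genes in each diet by edgeR, with 750 to 1407 genes at an unadjusted p under 0.05, and DESeq2 was not run with the covariate.

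The size of what remained depended on the slope given to *col1a1a*. The fitted slope was 0.32 on log2 scales (SE 0.09, 95% interval 0.14 to 0.51, edgeR adjusted p = 0.00597), which means that *parvaa* rose less than in proportion to *col1a1a* between fish of the same diet. With a slope for each diet the remainder was 1.78 in LP20, 1.81 in LP100, 1.82 in LP500 and 1.44 in MG. Standard errors were 0.56 to 0.58, with 95% intervals of 0.66 to 2.91, 0.65 to 2.97, 0.65 to 3 and 0.31 to 2.58. That fit is read at the mean log2 *col1a1a* of all fish, and only the highest CD fish in *col1a1a* lay above that mean. For CD it is thus largely an extrapolation, along a slope of -0.03 fitted to 1 to 5 *parvaa* counts per fish. With the slope fixed at 1, *parvaa* is read per unit of *col1a1a*. The remainder was then 0.27, -0.08, -0.16 and 0.13, with standard errors of 0.55 to 0.57. The same shows in the simple ratio: the median number of *parvaa* counts per 1000 *col1a1a* counts, both as CPM, was 4.12 in CD, 4.13 in LP20, 3.04 in LP100, 3.85 in LP500 and 5.72 in MG, with ranges that overlapped in all diets. A slope of 1 lies outside the 95% interval of the fitted slope on *col1a1a*. It lies inside that of the slope on the smooth muscle list, 0.34 to 1.07. That list is a mean over several genes, so its slope is not on the scale of *col1a1a*. No fit with the slope on that list fixed at 1 was run, so what it would leave is not known. Which slope holds for the tissue was not tested.

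Other measures of the wall gave remainders close to that of *col1a1a*. The mean of the matrix list without *col1a1a* left 1.34 in LP20, 1.29 in LP100, 1.39 in LP500 and 0.99 in MG. The smooth muscle list left 1.39, 1.37, 1.41 and 0.99, with the fitted slope of *parvaa* on it at 0.7 (95% interval 0.34 to 1.07). The difference between the smooth muscle and enterocyte lists left 1.5, 1.53, 1.53 and 1.06.

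**Figure D3:**
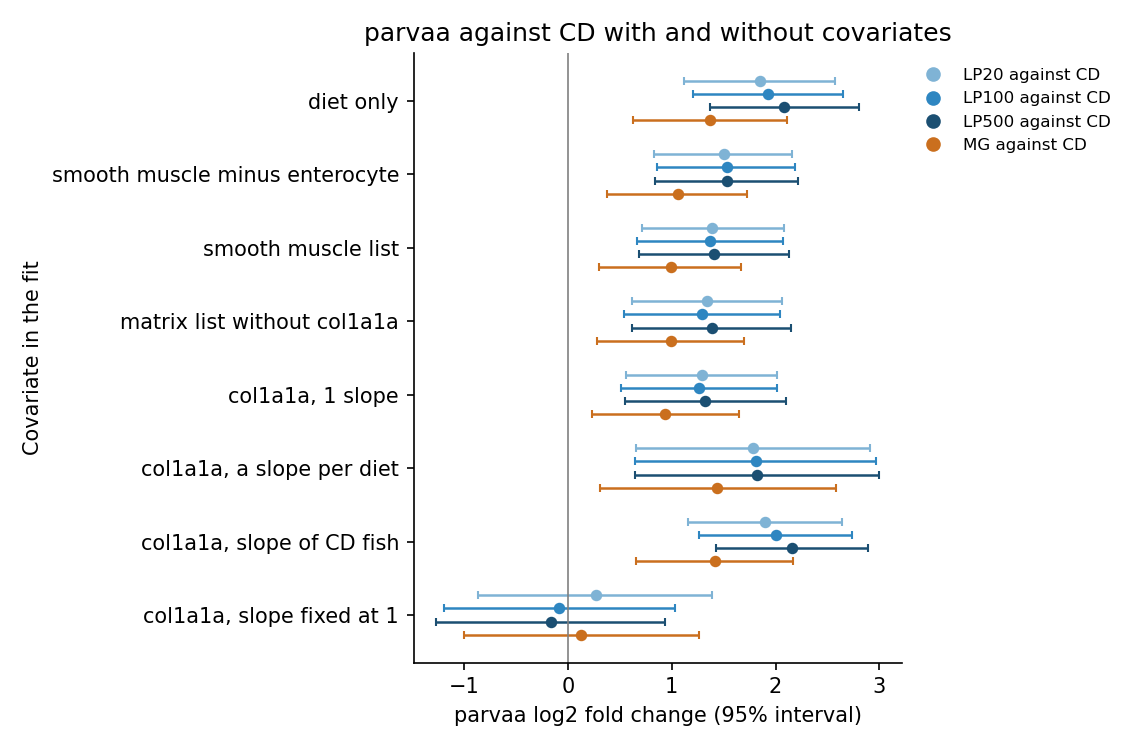
Log2 fold change of *parvaa* against CD with its 95% interval in edgeR fits that differ in the covariate, 1 row per covariate and 1 colour per diet, with 9 fish per diet. The values lie between 0.94 and 2.16 in every fit except the one with the slope on *col1a1a* fixed at 1, where they lie between -0.16 and 0.27.

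Of the other parvins matched by symbol, *parvb* encodes beta-parvin, best known in mammals from heart and skeletal muscle, and *parvg* encodes gamma-parvin, best known from blood cells. No second alpha-parvin gene was matched, and any parvin gene known only by a LOC name is missing here. Per kb of exon, *parvaa* had the lowest level of the 3 matched parvins in every diet: in CD it was at 0.079 CPM per kb, against 0.533 for *parvb* and 1.76 for *parvg*, and in LP500 at 0.345, 1.01 and 1.95. *parvb* had a lowest value of 0.996 CPM, a median of 1.53 and a highest of 3.73 in CD, and 1.74, 2.83 and 5.96 in LP500. All 9 LP500 fish were above the CD median in *parvb* but the groups overlapped, with 3 of them above the highest CD fish.

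*parvb* rose in LP500 by 0.93 on the log2 scale (SE 0.29, edgeR adjusted p = 0.0326). In LP100 its log2 fold change was 0.94 (edgeR adjusted p = 0.0513), in LP20 0.75 and in MG 0.65. For *parvg* the log2 fold change in LP500 was 0.15 (SE 0.16, edgeR adjusted p = 0.598), and its values in CD and LP500 overlapped almost throughout.

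Of the partners in the complex, *ilk* and *rsu1* were above all 3 matched parvins per kb of exon in every diet, and *lims1* was closer to *parvg*. *ilk* was at 7.13 CPM per kb in CD and 10.4 in LP500, *rsu1* at 9.07 and 11.8, and *lims1*, which encodes PINCH1, at 2.58 and 2.63. *ilk* had a lowest value of 18.3 CPM, a median of 23.1 and a highest of 30.4 in CD, and 25.9, 33.3 and 55.3 in LP500, where 6 fish were above the highest CD fish. It rose in LP500 by 0.54 (SE 0.12, edgeR adjusted p = 0.00612). *rsu1* had a lowest value of 25.7 CPM, a median of 28 and a highest of 33.8 in CD, and 30.4, 38.1 and 52.9 in LP500, and it rose by 0.37 (SE 0.1, edgeR adjusted p = 0.0126). For *lims1* the log2 fold change was 0.03 (95% interval -0.13 to 0.19, edgeR adjusted p = 0.862). For *tesk1a*, a kinase gene whose product binds alpha-parvin in mammals, it was -0.08 (-0.29 to 0.13, edgeR adjusted p = 0.688).

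In all, 3 of the 6 tested relatives and partners rose in LP500, beside 7.45% of all genes tested, and 0 fell, beside 3.21%. With counts summed per run of labels, 1 of the 6 rose, and the share of all genes called in that fit was not recorded. In LP100 edgeR called 0 of the 6 (3.6% of all genes rose and 0.473% fell), with 4 at an unadjusted p under 0.05 and 1 called by DESeq2. Over all genes, 5885 were at an unadjusted p under 0.05 in LP100 and DESeq2 called 2068. The LP100 count was 3 without CD replicate 7, LP100 replicate 7 or LP500 replicate 1. In LP20 and MG edgeR called 0 of the 6, as it called 0% of all genes in either direction, with 2 and 1 at an unadjusted p under 0.05 and 0 called by DESeq2 in either diet. Over all genes, 4086 in LP20 and 2265 in MG were at an unadjusted p under 0.05, and DESeq2 called 183 and 0. The median log2 fold change of the 6 was 0.16 in LP20, 0.32 in LP100, 0.26 in LP500 and 0.08 in MG, where the median of all genes was between -0.01 and 0.

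**Figure D4:**
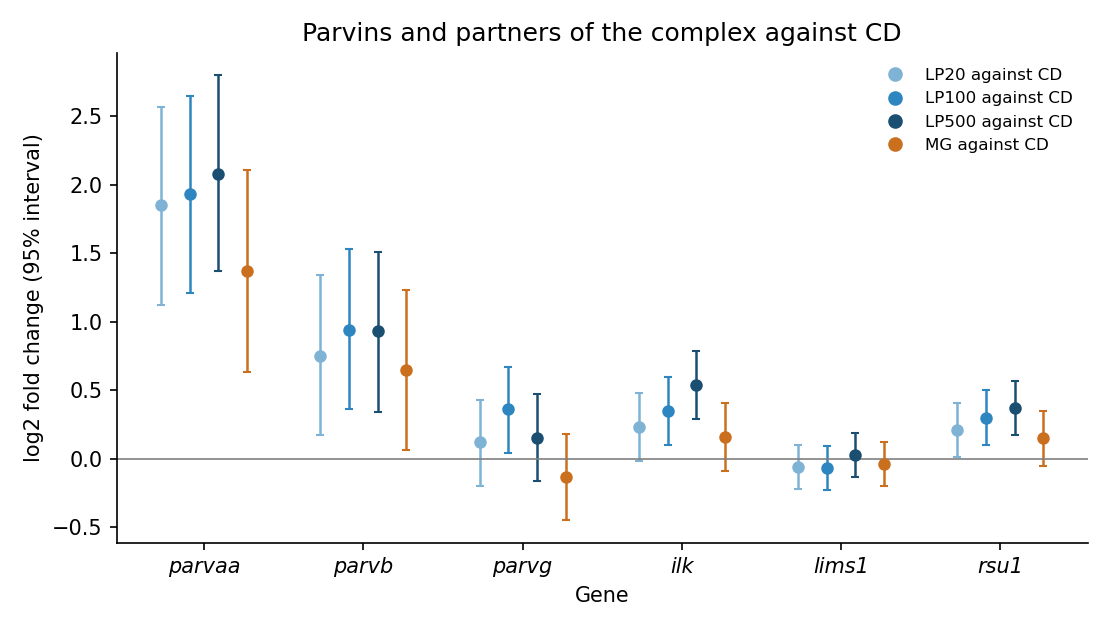
Log2 fold change against CD with its 95% interval (edgeR, 9 fish per diet) for *parvaa*, the other 2 parvins matched by symbol and the partners *ilk*, *lims1* and *rsu1*, 1 colour per diet. *parvaa* lies between 1.37 and 2.08, *parvb* between 0.65 and 0.94, and the others between -0.13 and 0.54.

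The list of other focal adhesion genes held 16 genes that could be matched and tested, among them integrins, actin-binding adaptors and kinases. In LP500, 9 of the 16 rose and 0 fell, beside 7.45% and 3.21% of all genes tested. In LP100, 6 rose and 0 fell, beside 3.6% and 0.473%. In LP20 and MG edgeR called 0 of the 16, with 9 and 6 at an unadjusted p under 0.05 and with 2 and 0 called by DESeq2. Over all genes those counts were 4086 and 2265 at an unadjusted p under 0.05, and 183 and 0 by DESeq2. The median log2 fold change of the 16 was 0.73 in LP20, 0.73 in LP100, 0.63 in LP500 and 0.52 in MG. The LP100 count moved most with single fish: it fell to 0 without CD replicate 3 or without LP100 replicate 4, and reached 10 without LP100 replicate 7. With counts summed per run of labels it was also 0, and the LP500 count was 6, where the share of all genes called was not recorded.

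The genes that rose in LP500 included *actn1*, which encodes the actin crosslinker alpha-actinin 1. Its median went from 20.5 CPM in CD to 53 in LP500, a rise of 1.3 on the log2 scale (SE 0.29, edgeR adjusted p = 0.00593). The tensins *tns1b* and *tns2a*, which bind integrin tails, rose by 1.44 (SE 0.32, edgeR adjusted p = 0.00593) and 1.41 (SE 0.32, edgeR adjusted p = 0.00611). The LIM adaptors *lpp* and *lasp1* rose by 1.21 and 1.09, and *svila*, which encodes a supervillin that links actin to the membrane, rose by 0.69. Of the integrins, *itga8*, known from smooth muscle and mesenchyme, rose by 1.84 from a median of 0.405 CPM to 2.11, and *itga5*, the fibronectin receptor chain, rose by 0.56. Those at or near no difference included *vasp* (0.06), *tln1* (0.12), the talin that activates integrins, and *ptk2ba* (0.11), a kinase gene of the Pyk2 type.

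With *col1a1a* as a covariate little of these differences was left. In LP500 the log2 fold change went from 0.93 to -0.15 for *parvb*, from 0.54 to 0.11 for *ilk*, from 0.37 to 0.07 for *rsu1*, from 1.3 to 0.08 for *actn1* and from 1.84 to -0.2 for *itga8*. The median of the 16 focal adhesion genes was then 0.02 and that of the 6 relatives and partners 0.05. By edgeR 0 of the 16 and 0 of the 6 were past the threshold or at an unadjusted p under 0.05 in any of the 4 diets in this fit. *parvaa* kept 1.32 in the same fit, but it was chosen for its difference in this contrast and they were not, and the difference between it and the others was not tested. A remainder was not particular to *parvaa*. In LP500 the endothelial gene *vwf* went from 2.34 to 1.24 and the red blood cell gene *alas2* from 1.62 to 0.87. The median of the 5 endothelial genes tested was -0.15 in this fit.

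Several lists of cell type markers also moved with the diets, where 3.6% of all genes rose in LP100 and 7.45% in LP500. The 6 matrix genes, *col1a1a* among them, summed to between 54.1 and 344 CPM in CD and between 75.8 and 1070 in LP500, and all 6 rose in LP100 and in LP500. The 4 smooth muscle genes, led by *acta2* (smooth muscle actin) and *myl9b* (a myosin light chain), summed to between 343 and 903 CPM in CD and between 468 and 3150 in LP500, where 3 of the 4 rose. In LP100 0 of the 4 were called, with a median log2 fold change of 0.9. Of the 5 endothelial genes, led by *plvapb* and *pecam1a*, 4 rose in LP500 and 2 in LP100. The 6 enterocyte genes had a median log2 fold change of -0.15 in LP500 (range -0.54 to 0.47), with a sum of 7020 to 11000 CPM in CD and 6650 to 9740 in LP500. *alas2*, the haem synthesis enzyme of red blood cells, rose in LP500 by 1.62 (edgeR adjusted p = 0.00841), while *slc4a1b* was at 0 in all fish. The median log2 fold change in LP500 was 0.02 for the 3 T and B cell genes, -0.09 for the 2 myeloid genes tested and -0.07 for the 3 neuron and enteroendocrine genes tested. The part of any of these cell types in the *parvaa* difference was not tested beyond the covariates above.

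Within diets, *parvaa* was also correlated with the smooth muscle and matrix lists. Its r was 0.49 with the smooth muscle list (permutation p = 0.00245, adjusted 0.0211) and 0.43 with the matrix list (permutation p = 0.00603, adjusted 0.0211). For the endothelium list r was 0.36 (permutation p = 0.0278, adjusted 0.0501) and for the enterocyte list -0.36 (permutation p = 0.0286, adjusted 0.0501). Neither of these was past the threshold after adjustment. Without the 2 fish farthest from the median of the enterocyte list, r with that list was -0.29. With the genes of its complex r was 0.43 for *ilk* (permutation p = 0.00543, adjusted 0.0211), 0.4 for *rsu1* (permutation p = 0.0166, adjusted 0.0388), 0.39 for *parvb* (permutation p = 0.0123, adjusted 0.0346), 0.25 for *lims1* and 0.18 for *parvg*. None of the 14 rank correlations was past the threshold after adjustment. Of the neighbours on the chromosome, LOC106561462 had an r near 0, at -0.04 (rho -0.06). For LOC106561460 r was 0.17 and rho 0.29 (permutation p = 0.0678, adjusted 0.19). LOC106561462 was at 43.5 CPM in CD and 39.9 in LP500 (log2 fold change -0.13, edgeR adjusted p = 0.668), and *parvaa* against CD was 2.06 in LP500 with LOC106561462 as a covariate. LOC106561460 was at 0.66 CPM in CD and 0.768 in LP500 (log2 fold change 0.21, edgeR adjusted p = 0.764), and it was not used as a covariate.

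Among 31728 other genes, those most like *parvaa* were found by r over 45 fish with the diet means removed, as a description with no test. The 5th and 95th percentiles of r were -0.34 and 0.39, and 2.28% of genes had an r above that of *col1a1a*, which ranked 724. All points share libraries, and *parvaa* is measured by few counts, which limits r for every gene. The genes with a symbol and the highest r were *timp2* (0.64), an inhibitor of matrix metalloproteinases, *plin1* (0.63), the perilipin of fat droplets, *nptn* (0.59), *ftr66* (0.59), *kcnk4a* (0.58), *fdx1b* (0.58), *mtss1lb* (0.57), *pnoca* (0.56), *eno3* (0.56) and *prph* (0.55), the peripherin of neurons. Of these, *timp2*, *nptn*, *fdx1b* and *prph* had an r of 0.81 or more with *col1a1a* in the same fish, while *ftr66* had 0.42, *plin1* 0.53 and *kcnk4a* 0.54. The lowest r belonged to *spen* (-0.65), *p5cs* (-0.61), *ciz1b* (-0.6), *dock8* (-0.6) and *prkacba* (-0.59).

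*timp2* was positive in all 5 diets, with r between 0.38 and 0.71. Its mean rose in the same order as that of *parvaa*, from 4.21 CPM in CD to 6.54 in MG, 7.57 in LP20, 8.37 in LP100 and 9.56 in LP500. That order was not particular to *timp2*, since the means of *col1a1a*, *acta2* and *rsu1* had it too. *plin1*, with r between 0.1 and 0.94 by diet, was at 0.278 CPM in CD and 0.731 to 1.02 in the other diets. *spen* was negative in all 5 diets, with r between -0.89 and -0.47.

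**Figure D5:**
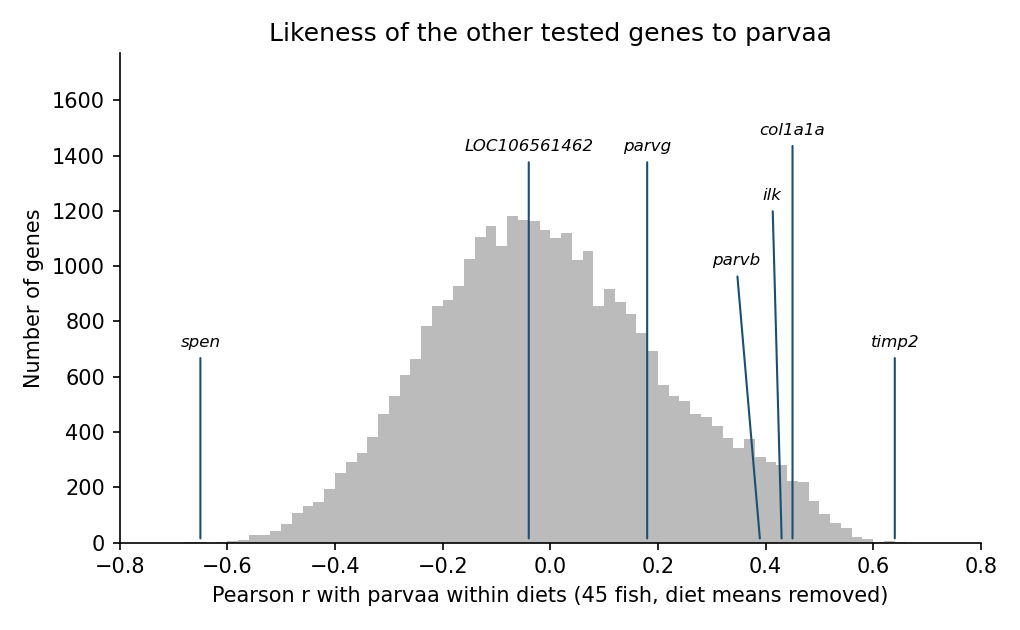
Number of genes by their Pearson r with *parvaa* over 45 fish after removal of the diet means, for the 31728 other genes tested; lines mark named genes. *timp2* lies at 0.64, *col1a1a* at 0.45, *ilk* at 0.43, *parvb* at 0.39, *parvg* at 0.18, LOC106561462 at -0.04 and *spen* at -0.65.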

How the data were processed

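Total RNA of the distal intestine was sequenced as paired-end libraries on Illumina instruments. The deposited values are raw counts of fragments per gene, made by the authors with nf-core rnaseq 3.3 on the assembly Ssal_v3.1 and featureCounts (Subread 1.5.1), counting only fragments on the strand of the gene per the file headers, with no normalization. The labels and the study name different RNA extraction kits, and which was used is not settled here.

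Gene symbols were taken from RefSeq by position on the same assembly, for genes sharing at least 0.5 of the joint span: 30752 of 69389 genes matched, 8906 of them with a symbol other than LOC. Counts were analysed in R 4.3.3 with edgeR 4.0.16, in 1 fit over 45 fish by diet (TMM library sizes, filterByExpr, quasi-likelihood test, Benjamini-Hochberg adjustment over 31729 genes, threshold 0.05). *parvaa* passed the filter, which asks for 0.683 CPM in enough libraries, through 19 fish, none of them CD. The log2 CPM used a prior count of 2, and the covariate was the centred log2 CPM of *col1a1a*. Correlations used exact pairings or 100000 permutations within diets. The fits were tested on simulated data with a random covariate, which does not check a covariate that differs between diets as *col1a1a* did.

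The gene, the lists and the tests were chosen with earlier results of these data known. Genes named are *parvaa*, *col1a1a*, the matched parvin, *ilk*, *lims* and *rsu1* genes, the 8 focal adhesion genes with the smallest adjusted p among those called in LP500, the 10 genes with the highest and the 5 with the lowest r to *parvaa*, its neighbours and the 2 most abundant members of each marker list. *tesk1a*, *vasp*, *tln1*, *ptk2ba*, *slc4a1b* and *vwf* were added after their values were seen. List members were matched by symbol, so that genes known only by a LOC name are missing from the lists. Alternatives were DESeq2 1.42.0, other scalings, no filter, other covariates and slopes, counts summed per run of labels, and each fish left out.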

Additional observations from a re-analysis of the deposited data

Results flagged for a closer look

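The highest and lowest fish were compared with the rest of their diet in 45 groups of 9 fish (a gene in a diet). In 5 of them the gap to the next fish was large against the whole range (Dixon's test at the 95% level). That level holds for normal and independent groups. Here CPM was used without log and the groups share fish, so the number of groups is not set against chance. In *parvaa*, MG replicate 6 had 1.37 CPM where the next MG fish had 0.575. The same fish had the highest *col1a1a* of its diet, 348 CPM. Without it the log2 fold change of *parvaa* in MG was 1.04 in place of 1.37, and 0.8 in place of 0.94 with *col1a1a* as a covariate.

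In *col1a1a*, CD replicate 7 had 182 CPM where the next CD fish had 68.2, and its *parvaa* was at 0.191 CPM. Without it the log2 fold change of *parvaa* given *col1a1a* was at its lowest, 1.12 in LP100 and 1.19 in LP500.

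LP500 replicate 1 was the highest of its diet in *ilk* (55.3 CPM, the next fish 38.8) and in *rsu1* (52.9 CPM, the next fish 39.7). It was also the highest fish of all in *col1a1a*, with 625 CPM, and its *parvaa* was at 0.877 CPM. LP100 replicate 7 was the lowest of its diet in *parvb*, with 1.1 CPM where the next fish had 2.95. It was the lowest of its diet in *col1a1a* as well, with 27.9 CPM.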

How the results depend on the processing

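The gene was chosen for LP500 against CD, and every comparison with CD uses the same CD fish. Alternatives on the same counts therefore show only how the values depend on the processing. Without *col1a1a* or a list of wall genes as a covariate, no alternative turned the sign of a log2 fold change of *parvaa* against CD. These were 1.84 to 2.17 in the HK L-137 diets and 1.36 to 1.42 in MG under DESeq2 size factors, total counts, no filter, DESeq2, counts summed per run of labels, and *LOC106561462* as a covariate, which was added after seeing the data. Leaving out each of the 45 fish in turn gave 1.62 to 1.98 in LP20, 1.86 to 2.05 in LP100, 1.98 to 2.23 in LP500 and 1.04 to 1.5 in MG. Given *col1a1a*, the same gave 1.06 to 1.43, 1.12 to 1.4, 1.19 to 1.48 and 0.8 to 1.08.

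The slope decided the remainder given *col1a1a*. With the slope of the CD fish it was 1.9 in LP20, 2 in LP100 and 2.16 in LP500. With the slope fixed at 1 it was 0.27, -0.08 and -0.16 there and 0.13 in MG. Both follow from the construction of these fits. With counts summed per run of labels it was 1.08, 1.01, 1.07 and 0.82.

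Of the relatives and partners in LP100, DESeq2 called 1 in place of 0, and leaving out single fish (added after seeing the data) gave 0 to 3. In LP500 the sums per run gave 1 in place of 3 and the covariate 0, and single fish gave 2 to 3. Of the focal adhesion genes in LP100, the sums per run and the covariate gave 0 in place of 6, and single fish gave 0 to 10, with 3 or fewer without CD replicate 1, 2, 3, 5 or 8 or LP100 replicate 4. In LP500 the covariate gave 0 in place of 9, and single fish gave 6 to 9. With 3 sums per diet there are fewer samples, and the cause was otherwise not tested. The covariate fit called 0 of all genes in every diet. The share of all genes called was not recorded for the sums per run or with single fish left out.

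No pair of additive diets passed the threshold under DESeq2, the exact permutation test or the sums per run, and DESeq2 gave no adjusted p for the pairs with LP500. A fit on only the 18 fish of a comparison gave no value, since *parvaa* did not pass the filter there. No paired analysis was possible because the labels give the diets no shared replicate numbers. The CD level rests on 24 counts.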
